A study of Homo sapiens with 4 samples.

Results

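Immediate early genes are switched on by growth factors, serum or stress without new protein synthesis. The 10 described here, EGR1, EGR2, EGR3, IER2, IER3, IER5, PHLDA1, KLF4, KLF6 and KLF10, were chosen by name from the 27694 genes of the deposited table, and all 10 were listed. LN229 is an established cell line grown from a human glioblastoma. UM-164 inhibits the kinases c-Src and p38. LN229 cells received 100 nM UM-164 (2 libraries) or the vehicle DMSO (2 libraries), both for 24 h, in medium with serum. Separate cultures for the libraries of a group are not stated, and the p-values rest on a spread between libraries that may be technical. In RNA from whole cultures, fewer expressing cells and less RNA per cell cannot be told apart.

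The EGR proteins are zinc finger transcription factors that stand at the end of the ERK cascade. In growth factor signaling, ERK phosphorylates ternary complex factors such as ELK1, which sit with the serum response factor SRF on CArG boxes in the promoters of FOS and EGR1, and the EGR proteins then bind GC-rich sites in their own and other promoters. The transcripts decay quickly after an acute stimulus, so RNA from cells growing steadily in serum for 24 h gives a sustained level and not the first wave of induction.

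After UM-164, EGR1 was lower at 17.3 ± 1.12 FPKM in UM-164 libraries and 42.2 ± 3.41 FPKM in vehicle libraries (SD, n = 2 each), and it was the only one of the 10 genes to pass the test. The 10 log2 fold changes of UM-164 over vehicle were all below 0, against 48.1% of all tested genes, and their median was -0.40 against 0.01 over all tested genes. EGR2 and EGR3 had log2 fold changes of -0.83 and -0.47 that did not pass, and PHLDA1 and KLF6 lay near 0. IER2 had the largest fold change, but its 2 UM-164 libraries did not resemble each other.

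FPKM, fragments scaled to transcript length and library size, was deposited for each library without counts. The depth is therefore unknown. Among low values of genes with 1 transcript the smallest common step had a largest ratio of 1.11 between libraries. The step was sought only within a narrow range, so this ratio cannot show that the depths were alike. Log2(FPKM + 0.5) was compared with limma over the 11516 genes that averaged at least 1 FPKM, and the p-values were adjusted over all of them by the Benjamini-Hochberg method. Fold changes on this scale understate the change of low genes, and the 95% intervals are for single genes, not adjusted for the number tested. Ribosomal, 7SL and related RNAs took 10.01% and 11.5% of summed FPKM in UM-164 libraries, against 3.74% and 3.38% in vehicle libraries. Their part in the results was not tested, but EGR1 had a log2 fold change of -1.29 when protein-coding genes were rescaled to one sum, against -1.27 as deposited. Of the glial markers, S100B, SOX2, NES, VIM and CD44 had at least 15.9 FPKM in every library, whereas the astrocyte marker GFAP had at most 0.120. S100B was the 1 glial marker called, higher at 536 and 559 FPKM in UM-164 libraries, against 328 and 305 FPKM in vehicle libraries (limma, adjusted p = 0.0326). That call held in 6 of the 13 alternatives and was lost with no filter (0.195), median-ratio scaling (0.0640), no trend (0.0819) and each library left out (0.0775 to 0.122). The other glial markers went both ways without a call. OLIG2, of the oligodendrocyte lineage, had 6.09 and 5.89 FPKM in UM-164 libraries, against 3.51 and 2.24 FPKM in vehicle libraries (log2 fold change 0.97), while NES (-0.44) and VIM (-0.53) were lower in UM-164 libraries with no overlap. In all, 2 of the 6 glial markers tested were lower and 2 higher at an unadjusted p under 0.05. Over all tested genes these shares were 10.6% and 9.47%. Of the markers of other cell types, the endothelial genes had at most 0.388 FPKM, PTPRC and AIF1 at most 0.0861, and the macrophage gene CD68, which other cells also use, 16.7 to 20.2.

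RefSeq promoters (GRCh38.p14, 250 bases before to 50 after each start) were found for 7 of the 10 genes, EGR1, EGR2, IER2, IER5, PHLDA1, KLF4 and KLF6, and 9 windows in all, because EGR2 has 3 starts. On either strand a CArG box was present in 2 of the 7 genes, EGR1 and EGR2, and in 1.29% of all 35116 promoters. For every motif a gene is counted if any of its windows holds a match, while the percentages count single windows. EGR2, with 3 starts, therefore had more chances of a match. EGR1, the gene that passed the test, held 2 CArG boxes, at bases -105 to -96 and -83 to -74 from its start, and EGR2 held 1 at -71 to -62 of the third start. The 250 bases before these starts are printed here with the CArG boxes in capitals. Among the windows found, only that of EGR1 and that of the third start of EGR2 held one. EGR3 had no promoter to search. The EGR1 stretch is chr5:138465229-138465478 on the plus strand and that of EGR2 is chr10:62816367-62816616 on the minus strand.
EGR1: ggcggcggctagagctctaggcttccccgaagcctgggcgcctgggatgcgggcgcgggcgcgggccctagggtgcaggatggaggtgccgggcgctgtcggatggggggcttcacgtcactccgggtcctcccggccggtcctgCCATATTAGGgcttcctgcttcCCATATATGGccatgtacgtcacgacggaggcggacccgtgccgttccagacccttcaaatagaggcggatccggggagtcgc
EGR2: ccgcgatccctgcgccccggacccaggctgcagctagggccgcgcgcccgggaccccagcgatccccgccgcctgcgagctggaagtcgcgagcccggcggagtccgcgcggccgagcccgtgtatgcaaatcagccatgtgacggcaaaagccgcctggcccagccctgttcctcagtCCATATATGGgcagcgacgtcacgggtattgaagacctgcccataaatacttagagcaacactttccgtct

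A site for EGR proteins themselves, GCGNGGGCG, was present in 4 of the 7 genes, EGR1, EGR2, KLF4 and KLF6, and in 9.43% of all promoters. It lies upstream of the RefSeq start in EGR1 (from base -198), KLF4 (from base -189) and KLF6 (from base -65), and downstream of the second start in EGR2. In KLF4 and KLF6 the site lies inside the gene span of GENCODE v29, which begins further upstream. In KLF4 and KLF6 it overlaps a GC box, GGGCGG, a motif that 5 of the 7 genes and 45.0% of all promoters hold. The 3 upstream sites are shown with 10 bases on each side and the site in capitals, at chr5:138465271-138465299 (plus strand), chr9:107489940-107489968 (minus strand, where the capitals are the site read on the other strand) and chr10:3785256-3785284 (minus strand).
EGR1: tgggatgcggGCGCGGGCGcgggccctag
KLF4: ggcccagcccCGCCCGCGCccctccttcc
KLF6: ggggagccagGCGGGGGCGgagggggagg

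IER2 alone held the ETS site searched for, CCGGAAG, which 10.3% of all promoters hold. Only these exact letters were counted, so ETS sites written with other letters, in EGR1 or elsewhere, were missed. EGR2 and IER2 held a CACCC box, CCACCC, found in 34.3%. No AP-1 site (TGANTCA, 7.71% of promoters), cyclic AMP response element (TGACGTCA, 1.85%) or TATA box (TATAAA, 11.5%) was found in the 9 windows, and IER5 held none of the 8 motifs. Here too, sites written with other letters were not counted, so such elements may still be present. A match describes letters in a window and not binding. None of the 25 other immediate early genes with a promoter in the table, FOS among them, held a CArG box within this window.

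**Figure D1:**
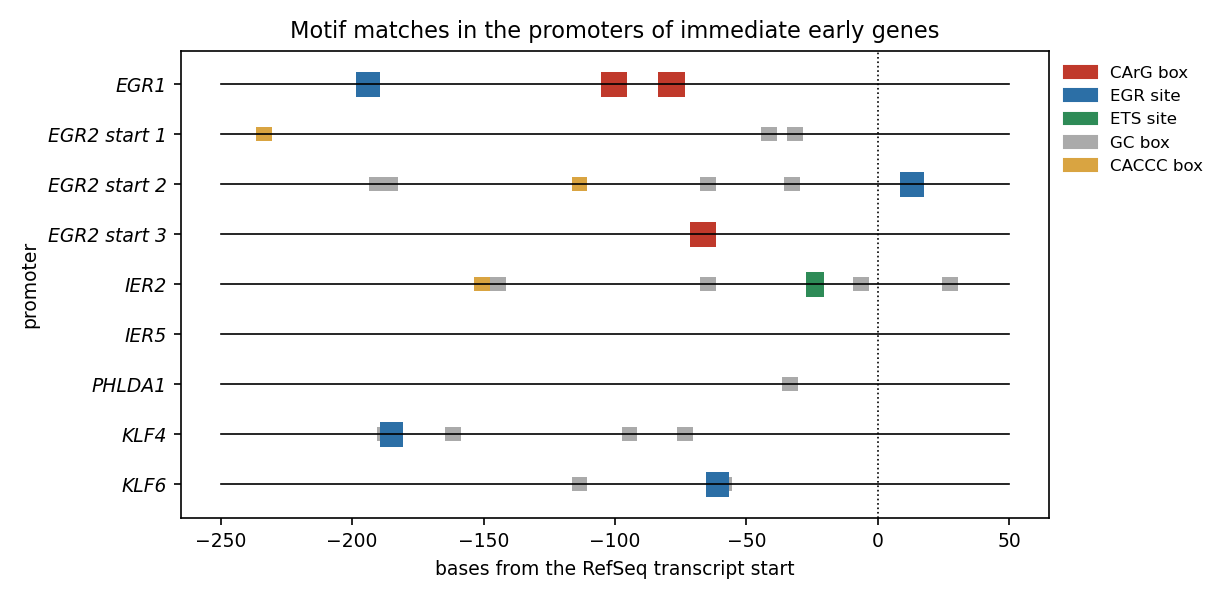
Motif matches on either strand in the 9 RefSeq promoter windows of the 7 immediate early genes found, in bases from the transcript start (dotted line). Colored boxes are matches; the 2 CArG boxes of EGR1 and the 1 of EGR2 lie between bases -105 and -62, and the windows of IER5, PHLDA1, KLF4, KLF6 and IER2 hold no CArG box.

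EGR1 (ENSG00000120738) encodes the founding EGR factor and lies on chromosome 5 from 138465490 to 138469315 (GENCODE v29 on GRCh38, as for all gene positions here), with 2 exons in its 1 transcript. It had 18.1 and 16.5 FPKM in UM-164 libraries, against 39.8 and 44.6 FPKM in vehicle libraries. Both UM-164 values lay far below both vehicle values, and the libraries of a group differed by 1.10 times with UM-164 and 1.12 times with vehicle. The log2 fold change was -1.27 (standard error 0.105, 95% interval -1.53 to -0.997, adjusted p = 0.0191 from limma), a level 2.40-fold lower. Among all tested genes 0.86% were lower at an adjusted p under 0.05, and 0.425% were called with a log2 value at or under -1. EGR1 met both thresholds, so 1 of the 10 genes was called lower. None was called higher, against 0.452% of all genes. The call did not hold without vehicle replicate 1 (log2 fold change -1.35, adjusted p = 0.0961 from limma) or vehicle replicate 2 (-1.18, adjusted p = 0.113), fits in which no gene was called lower. It also did not hold with no filter on low values (adjusted p = 0.153) or with no variance trend (adjusted p = 0.0516), while the fold change stayed between -1.35 and -1.18 over all 13 alternatives.

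EGR2 (ENSG00000122877), the family member that drives myelination in Schwann cells, lies on chromosome 10 from 62811996 to 62919900. It was a low gene, with 1.24 and 1.63 FPKM in UM-164 libraries, against 3.12 and 2.72 FPKM in vehicle libraries. The groups did not overlap, and the UM-164 mean of 1.43 ± 0.275 stood beside 2.92 ± 0.281 in vehicle (SD, n = 2 each). The log2 fold change was -0.83 (standard error 0.17, 95% interval -1.28 to -0.38, adjusted p = 0.0971 from limma), so it did not pass over all genes. With a pseudocount of 0.1 in place of 0.5 the value was -0.99 (adjusted p = 0.0994 from limma), and without 1 library at a time it ran from -0.98 to -0.68.

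EGR3 (ENSG00000179388), which acts downstream of calcineurin signaling in lymphocytes, lies on chromosome 8 from 22687659 to 22693302. It had 4.27 and 3.52 FPKM in UM-164 libraries, against 5.37 and 5.76 FPKM in vehicle libraries, again without overlap. Its log2 fold change of -0.47 (standard error 0.14, 95% interval -0.83 to -0.11) had an adjusted p = 0.171 from limma and did not pass. An unadjusted p under 0.05 was reached by 4 of the 10 genes in the lower direction, EGR1, EGR2, EGR3 and IER5, and by none in the higher direction, against 10.6% and 9.47% of all genes. On the other strand AC055854.1 shares some of its exon bases and had at most 0.714 FPKM.

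Of the EGR partners listed beside these genes, the fourth family member EGR4 was listed at 0 in both UM-164 libraries and had 0.0741 and 0.116 FPKM in vehicle libraries, and was not tested. NAB2, a corepressor that binds EGR proteins and is itself an EGR target, had 19.2 and 21.7 FPKM in UM-164 libraries, against 25.4 and 34.7 FPKM in vehicle libraries, which is -0.53 as log2 fold change (limma, adjusted p = 0.189). It was -0.75 without vehicle replicate 1 and -0.31 without vehicle replicate 2. The related corepressor NAB1 had one of 0.04 (adjusted p = 0.891 from limma), and -0.07 to 0.15 with 1 library left out. Neither of the 2 partners tested passed, and 1 of them was lower at an unadjusted p under 0.05, against 10.6% of all tested genes.

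**Figure D2:**
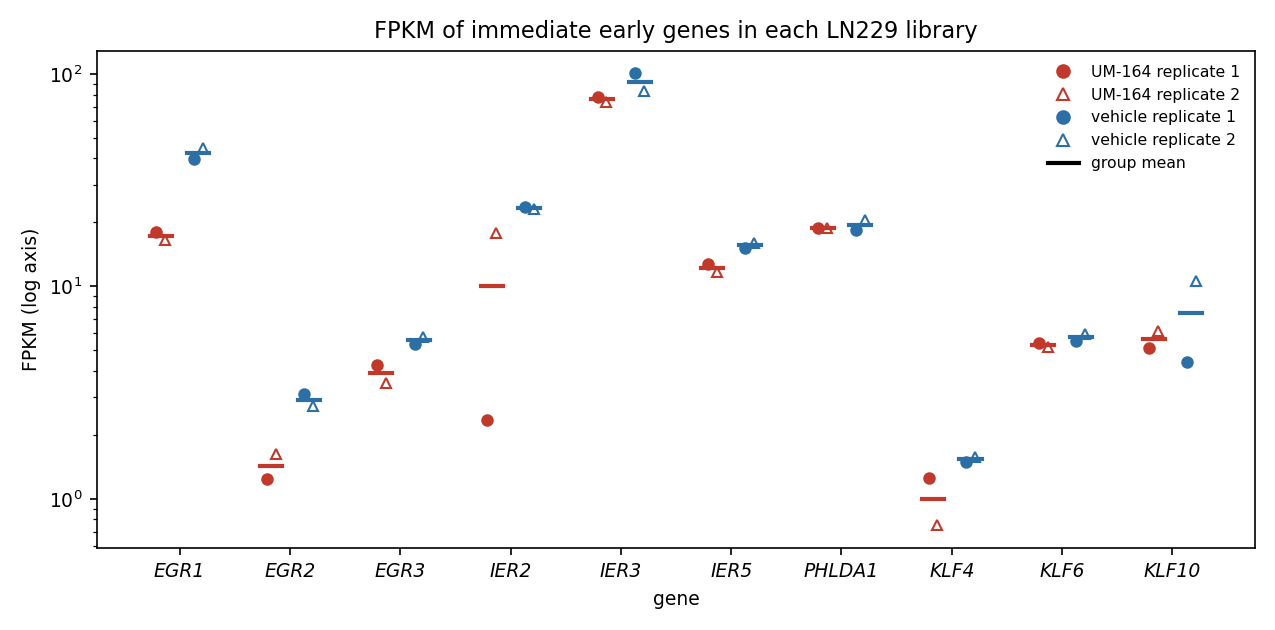
FPKM of the 10 immediate early genes on a log axis, with UM-164 libraries (red) left of vehicle libraries (blue), replicate 1 as filled circles, replicate 2 as open triangles and the group mean as a bar. EGR1 shows the clean separation, at 16.5 to 18.1 FPKM with UM-164 and 39.8 to 44.6 with vehicle, while the UM-164 libraries of IER2 and the vehicle libraries of KLF10 lie far apart.

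IER2 (ENSG00000160888) encodes a nuclear protein induced by serum and lies on chromosome 19 from 13150415 to 13154908. It had 2.36 and 17.8 FPKM in UM-164 libraries, against 23.7 and 23.0 FPKM in vehicle libraries. UM-164 replicate 1 was low, and UM-164 replicate 2 also lay below both vehicle libraries. The 2 UM-164 libraries differed by 7.54 times, a gap reached by only 33 of the 11516 tested genes (0.287%), while the vehicle libraries differed by 1.03 times. The log2 fold change of -1.72 had a standard error of 0.85 and an interval of -3.89 to 0.44 (adjusted p = 0.333 from limma), so no difference was shown. It was -0.38 without UM-164 replicate 1 (adjusted p = 0.371 from limma) and -3.06 without UM-164 replicate 2 (adjusted p = 0.00150), so 1 library set the size of this value. Of the 2 IER2 transcripts listed by the authors, neither has a value of its own in the table. A gene on the other strand, AC011446.2, shares 946 of the 3072 exon bases of IER2 but had at most 0.0486 FPKM.

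IER3 (ENSG00000137331), a stress and survival gene also known as IEX-1 that modulates ERK signaling, was the most abundant of the 10 per length of transcript. It lies on chromosome 6 from 30743199 to 30744554 and had 78.1 and 73.5 FPKM in UM-164 libraries, against 101 and 83.3 FPKM in vehicle libraries. The groups did not overlap, but the vehicle libraries lay 1.21 times apart, and the log2 fold change of -0.27 did not pass (95% interval -0.57 to 0.03, adjusted p = 0.281 from limma). With 1 library left out it ran from -0.41 to -0.14. IER3-AS1 shares 359 of its 1356 exon bases on the other strand and had 0.372 to 3.43 FPKM. Whether reads were counted by strand is not stated, so reads of such pairs cannot be told apart.

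IER5 (ENSG00000162783), a regulator of the heat shock factor HSF1, lies on chromosome 1 from 181088712 to 181092899 as a single exon. It had 12.7 and 11.7 FPKM in UM-164 libraries, against 15.1 and 16.1 FPKM in vehicle libraries, with no overlap and with 1.09 and 1.06 times between the libraries of each group. Its log2 fold change of -0.35 (standard error 0.10, 95% interval -0.60 to -0.09) had an adjusted p = 0.165 from limma and did not pass.

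PHLDA1 (ENSG00000139289), a pleckstrin homology-like protein used as a readout of ERK output, lies on chromosome 12 from 76025447 to 76033932. It had 18.8 and 18.7 FPKM in UM-164 libraries, against 18.5 and 20.5 FPKM in vehicle libraries, and the groups overlapped. The log2 fold change was -0.05 (95% interval -0.30 to 0.20, adjusted p = 0.806 from limma), and it was 0.02 without vehicle replicate 2. Of its relatives, PHLDA3, a p53 target that restrains AKT, had 71.5 and 67.2 FPKM in UM-164 libraries, against 63.3 and 36.4 FPKM in vehicle libraries (log2 fold change 0.53, adjusted p = 0.339 from limma). The value was 0.92 without vehicle replicate 1 and 0.13 without vehicle replicate 2. IER5L had one of 0.22 (adjusted p = 0.314 from limma). None of the 3 relatives of IER5 and PHLDA1 passed in either direction, and none had an unadjusted p under 0.05 from limma. On the strand opposite PHLDA1, AC011611.3 shares 553 and AC011611.4 shares 779 of the 8069 exon bases of PHLDA1. AC011611.3 had at most 0.111 FPKM, and AC011611.4 was not listed, so its level is unknown.

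KLF4 (ENSG00000136826), the pluripotency and differentiation factor, lies on chromosome 9 from 107484852 to 107490482 and was the lowest of the 10. It had 1.25 and 0.751 FPKM in UM-164 libraries, against 1.49 and 1.57 FPKM in vehicle libraries. The groups did not overlap, and the log2 fold change of -0.46 did not pass (95% interval -1.02 to 0.11, adjusted p = 0.329 from limma). It was -0.70 without UM-164 replicate 1 and -0.21 without UM-164 replicate 2.

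KLF6 (ENSG00000067082), a candidate tumor suppressor in several cancers, lies on chromosome 10 from 3775996 to 3785281. It had 5.43 and 5.20 FPKM in UM-164 libraries, against 5.52 and 5.99 FPKM in vehicle libraries. The UM-164 values lay just below the vehicle values, and the log2 fold change was -0.11 (95% interval -0.40 to 0.19, adjusted p = 0.648 from limma). With 1 library left out it ran from -0.16 to -0.05.

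KLF10 (ENSG00000155090), the early gene of TGF-beta signaling first named TIEG1, lies on chromosome 8 from 102648779 to 102655902. It had 5.15 and 6.18 FPKM in UM-164 libraries, against 4.41 and 10.6 FPKM in vehicle libraries. Here the vehicle libraries diverged, by 2.41 times, a gap as large as in 1.75% of tested genes, and both UM-164 values lay between them. The log2 fold change of -0.27 (95% interval -1.27 to 0.74, adjusted p = 0.745 from limma) was 0.32 without vehicle replicate 2 and -0.86 without vehicle replicate 1, so the direction of KLF10 is not known from these libraries.

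**Figure D3:**
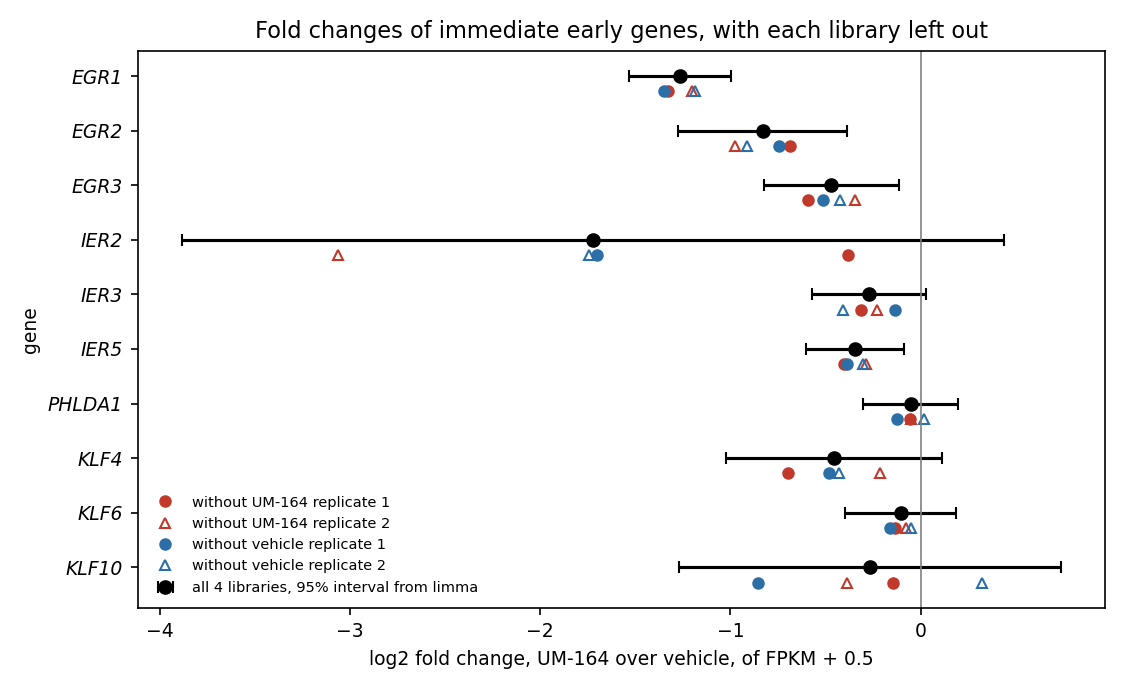
Log2 fold changes of UM-164 over vehicle on FPKM + 0.5 for the 10 genes, with 95% intervals from limma (black) and, below each, the value with 1 library left out. The values of EGR1 stay between -1.35 and -1.18, those of IER2 run from -3.06 to -0.38, and those of KLF10 and PHLDA1 fall on both sides of 0.

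Of 12 listed members of the rest of the KLF family, 7 were tested and none passed in either direction, with 2 lower and 1 higher at an unadjusted p under 0.05 from limma. Among all tested genes 10.6% were lower and 9.47% higher at that level. KLF16, a repressor expressed in brain, had 10.7 and 11.9 FPKM in UM-164 libraries, against 15.1 and 14.2 FPKM in vehicle libraries (log2 fold change -0.36, adjusted p = 0.165 from limma). KLF9, a hormone-induced factor, stood on the other side, with 17.7 and 14.3 FPKM in UM-164 libraries, against 10.1 and 12.7 FPKM in vehicle libraries (log2 fold change 0.47, adjusted p = 0.212 from limma).

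For 8 of the 10 genes the highest UM-164 value was under the lowest vehicle value, a pattern held by 25.5% of the genes tested. The opposite pattern, held by 27.7%, was shown by none. PHLDA1 and KLF10 were the other two. With 2 libraries against 2, a two-sided exact permutation test of any single gene cannot give a p below 0.33. The genes were chosen with earlier results of these data known, so the shared direction is a description.

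By group mean, the order of levels per length was the same at its top and bottom in both groups. IER3 was highest with 75.8 ± 3.20 FPKM in UM-164 libraries and 91.9 ± 12.3 in vehicle libraries (SD, n = 2 each), and EGR3, EGR2 and KLF4 closed the order in both groups. EGR1 had rank 3 at 17.3 FPKM in UM-164 libraries, below PHLDA1 at 18.8 with no overlap, and rank 2 at 42.2 FPKM in vehicle libraries, above PHLDA1 at 19.5. In UM-164 libraries the values of IER5 and IER2, IER2 and KLF10, KLF10 and KLF6, and EGR2 and KLF4 overlapped, so these neighbors were not separated. In vehicle libraries KLF10 overlapped KLF6, and KLF6 overlapped EGR3. Beyond neighbors, the IER2 values in UM-164 libraries, 2.36 to 17.8 FPKM, also spanned those of KLF6 and EGR3 and reached those of EGR1. In vehicle libraries the KLF10 values, 4.41 to 10.6 FPKM, also spanned those of EGR3.

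**Figure D4:**
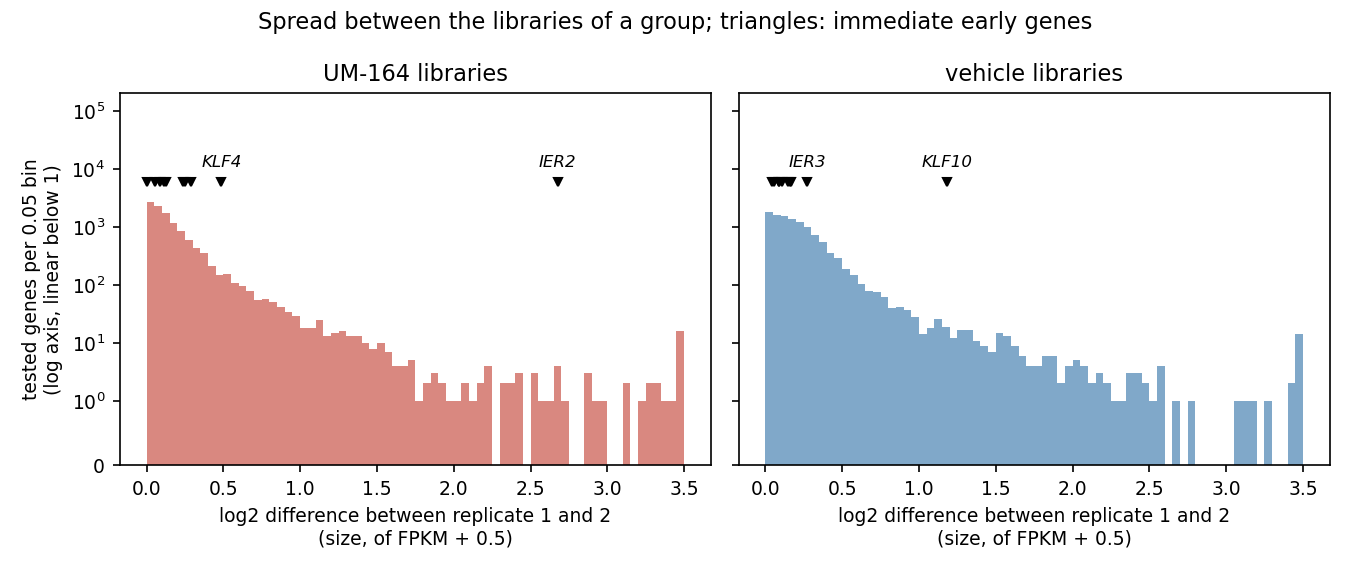
Size of the log2 difference between the libraries of a group for all 11516 tested genes (bars; the last bin holds all larger gaps), UM-164 left and vehicle right, with the 10 immediate early genes as triangles. IER2 at 2.68 in the UM-164 libraries and KLF10 at 1.18 in the vehicle libraries stand apart from the other triangles, against medians of 0.12 and 0.18 over all genes.

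Most of the 10 genes have a compact structure. In GENCODE v29 the median span of the 10 was 5638 bases, against 29626 bases over 10032 tested protein-coding genes. Of the 10, 9 spanned less than 29626 bases. The exception, EGR2, spans 107905 bases because of long alternative transcripts, although its exons cover 3689 bases. None overlaps another gene on the same strand.

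Other genes of the immediate early class were then compared. Of 33 listed, 30 were tested, and 3 were lower and none higher, with 10 lower and 2 higher at an unadjusted p under 0.05 from limma. Over all tested genes these shares were 0.86% and 0.452%, and 10.6% and 9.47% unadjusted. The median of the 30 values was -0.14, and 21 of them were negative. The largest falls belonged to the genes of the matricellular proteins CCN1 and CCN2, both secreted. CCN1 had 7.86 and 7.84 FPKM in UM-164 libraries, against 50.6 and 50.6 FPKM in vehicle libraries (log2 fold change -2.61, adjusted p = 0.00168 from limma). CCN2 had 15.2 and 13.4 FPKM in UM-164 libraries, against 72.8 and 74.1 FPKM in vehicle libraries (log2 fold change -2.32, adjusted p = 0.00490 from limma). JUN, the AP-1 subunit, fell to 35.9 and 35.9 FPKM in UM-164 libraries, against 60.8 and 62.6 FPKM in vehicle libraries (log2 fold change -0.77, adjusted p = 0.0281 from limma). ID1, an inhibitor of differentiation factors, had 35.7 and 32.0 FPKM in UM-164 libraries, against 62.7 and 55.1 FPKM in vehicle libraries, and MYC had 1.58 and 1.61 FPKM in UM-164 libraries, against 3.46 and 3.48 FPKM in vehicle libraries. Neither passed (log2 fold changes -0.79 and -0.92, adjusted p = 0.0528 and 0.0539 from limma). ID1 did pass at an average of at least 5 FPKM (0.0372), with quantile normalization (0.0490), with protein-coding genes rescaled (0.0340) and with the replicate block (0.0342), and MYC with quantile normalization (0.0470). As with EGR1, the calls of CCN1, CCN2 and JUN did not hold without vehicle replicate 1 (adjusted p = 0.0522, 0.0883 and 0.0975 from limma) or vehicle replicate 2 (0.0513, 0.0962 and 0.114). For JUN the same was true without UM-164 replicate 1 or 2 (0.0812 and 0.103), with no filter (0.153) or with no trend (0.0796). CCN2 was not called with no filter (0.0793).

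FOS, the partner of JUN, had 1.30 and 1.91 FPKM in UM-164 libraries, against 2.15 and 2.09 FPKM in vehicle libraries (adjusted p = 0.401 from limma). The nuclear receptor gene NR4A1 had 3.27 and 3.85 FPKM in UM-164 libraries, against 3.36 and 3.67 FPKM in vehicle libraries, and the MAPK phosphatase gene DUSP1 had 6.66 and 5.76 FPKM against 5.04 and 6.42 FPKM, with overlap in both. The 2 genes higher at an unadjusted p under 0.05 were TRIB1 and BTG1, both without overlap. TRIB1 had 14.0 and 12.9 FPKM in UM-164 libraries, against 8.74 and 8.58 FPKM in vehicle libraries (adjusted p = 0.0669 from limma). BTG1 had 15.7 and 15.0 FPKM, against 10.9 and 11.3 FPKM (adjusted p = 0.0981 from limma). FOS, NR4A1, DUSP1, TRIB1 and BTG1 lie outside the rule by which the other genes were named and were picked after their values were seen.

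**Figure D5:**
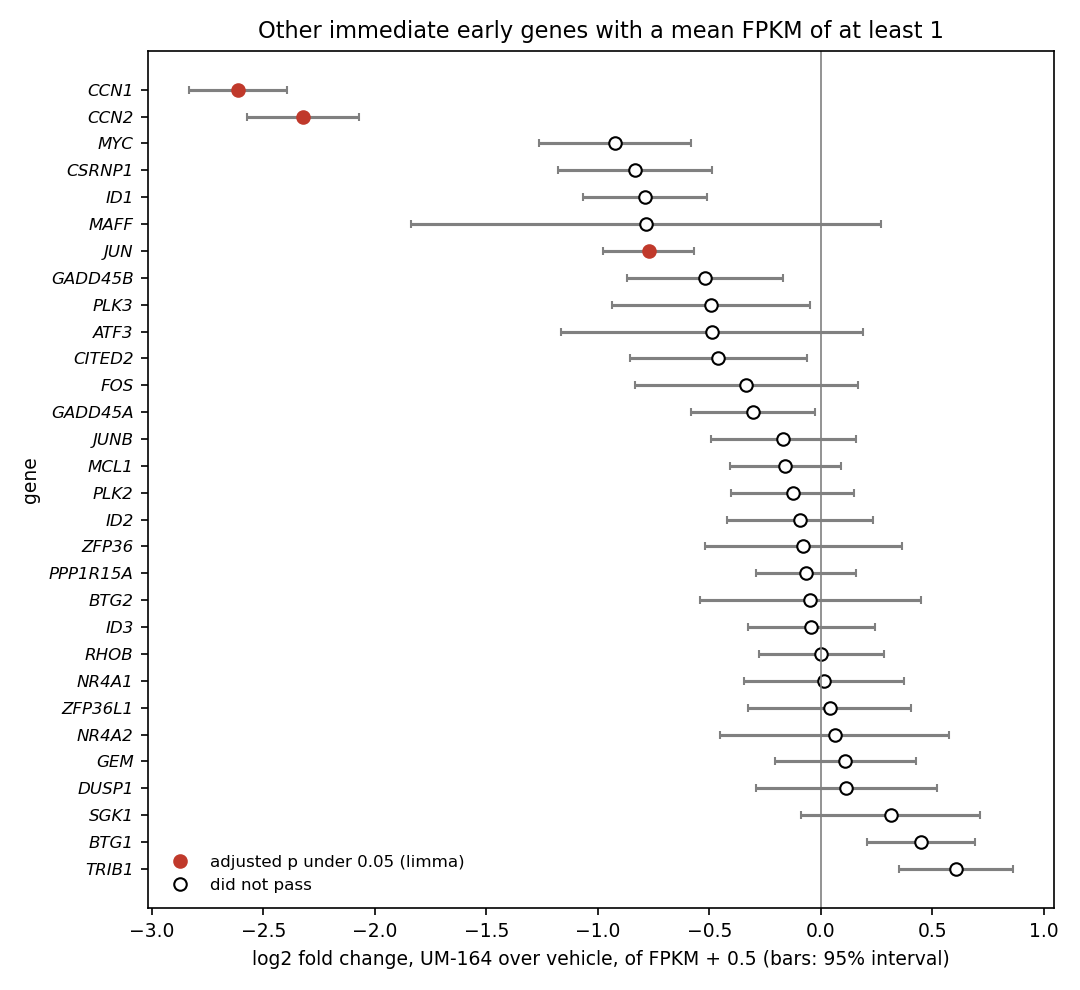
Log2 fold changes of UM-164 over vehicle on FPKM + 0.5, with 95% intervals from limma, for the 30 tested genes of the list of other immediate early genes. The 3 genes in red, CCN1, CCN2 and JUN, had an adjusted p under 0.05, and 9 of the 30 values are above 0.

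Factors and kinases that act on immediate early promoters were compared last. Of SRF and 5 of its cofactors none passed, with 2 lower and none higher at an unadjusted p under 0.05 from limma. SRF had 11.2 and 11.3 FPKM in UM-164 libraries, against 13.7 and 14.8 FPKM in vehicle libraries (log2 fold change -0.33, adjusted p = 0.174 from limma), and the actin-regulated coactivator MRTFA had one of -0.32 (limma, adjusted p = 0.190). Of 16 tested genes of 19 for c-Src and for kinases of the ERK and p38 cascades none passed, with 3 lower and none higher at an unadjusted p under 0.05. Beside both lists, the unadjusted shares over all tested genes were 10.6% lower and 9.47% higher. MAP2K1, which encodes the ERK kinase MEK1, had 15.4 and 15.1 FPKM in UM-164 libraries, against 22.7 and 22.7 FPKM in vehicle libraries (log2 fold change -0.56, adjusted p = 0.0601 from limma), and it passed at an average of at least 5 FPKM (0.0407).

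Outside these lists, the 3 protein-coding genes whose values over the 4 libraries were most like EGR1, by Euclidean distance of log2(FPKM + 0.5) from the vehicle mean, were CLCF1, UGCG and LIF. CLCF1, a cytokine gene, had 4.13 and 3.93 FPKM in UM-164 libraries, against 10.7 and 11.6 FPKM in vehicle libraries, at a distance of 0.145. UGCG, the glucosylceramide synthase gene, had 2.62 and 2.57 FPKM in UM-164 libraries, against 5.999 and 7.88 FPKM in vehicle libraries, at a distance of 0.163. LIF, a cytokine gene, had 48.9 and 49.2 FPKM in UM-164 libraries, against 123 and 124 FPKM in vehicle libraries, at a distance of 0.164.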

How the data were processed

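RNA of LN229 cells was sequenced by the study in 2 UM-164 and 2 vehicle libraries. Cutadapt 1.9, FastQC and build GRCh38 are in the submitters' processing notes, and HISAT2 is in the series text. No program for the expression values was given in the sources used here. Per gene and library, the authors deposited FPKM, beside their own fold change, log2 fold change, p-value and q-value, which were not used. FPKM carries no counts, so limma 3.58.1 in R 4.3.3 was used in place of a count test. Genes averaging at least 1 FPKM were kept, 0.5 was added, and moderated variances followed a trend on expression. Low values of genes with 1 transcript lay within 0.05 steps of a whole step in 26.4% to 28.9% of cases. Chance gives 10% for a single fixed step, but the step was the best of many tried within a narrow range. Whole reads could not be recovered. Gene positions came from GENCODE v29 and promoters from RefSeq. Python 3.11.15 with numpy 2.4.6 and pandas 2.3.3 made the tables.

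The 10 genes, the lists and the alternatives were chosen with earlier results of these data known. Named genes were the 10, the genes of each other list at an adjusted p under 0.05 and up to 2 more with the smallest p, and the 3 most like EGR1. A result that this rule names is not reported here. Alternatives were pseudocounts of 0.1 and 1, an average of at least 5 FPKM or no filter, quantile normalization, median-ratio scaling, rescaling to one sum of protein-coding genes, no trend, each library left out and the replicate number as a block.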

Additional observations from a re-analysis of the deposited data

How the results depend on the processing

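EGR1 was called lower, at the fold threshold too, in 9 of the 13 alternatives. With no filter on low values and with no trend both counts were 0. In each of these fits 4 of the 10 genes were lower at an unadjusted p under 0.05 from limma. Over all genes 1693 of 27694 were so with no filter and 1098 of 11516 with no trend. Leaving out 1 library also changed the calls. EGR1 was not called without vehicle replicate 1 or 2 (log2 fold changes -1.35 and -1.18), and IER2 was called without UM-164 replicate 2 (-3.06). A lone library is assumed there to vary like the other group. No gene of the 10 was called higher under any of the 13 alternatives. The sign held in all alternatives run for 8 of the 10 genes; PHLDA1 and KLF10 changed sign without vehicle replicate 2, and EGR2, EGR3 and KLF4 had no value at a mean FPKM of at least 5. With the replicate block 1 of the 10 genes was lower, and over all genes 107 were lower and 57 higher, against 99 and 52 without it; the deviations of same-numbered libraries had a correlation of -0.0556, so the numbers were not taken as pairs. Over all genes 1 was lower and 3 higher with no filter, 28 and 22 with no trend, 53 and 33 without UM-164 replicate 2, and 158 and 66 at a mean FPKM of at least 5. FPKM without counts limits what can be said of KLF4, EGR2 and other genes near 1 FPKM.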

Other observations

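The CArG box was also looked for in the promoters of the tested genes that had a RefSeq window. The shares over all tested genes given below include genes without such a window. Of 141 tested genes with a CArG box in a RefSeq promoter window, matched by symbol and EGR1 and EGR2 included, 5 (3.55%) fell and 1 (0.709%) rose (limma, adjusted p under 0.05), and the median log2 fold change was -0.02. Over all tested genes 0.86% fell and 0.452% rose, with a median of 0.01. The UM-164 values were both under the vehicle values in 36.2% of the 141 genes, against 25.5% of all genes, and both over them in 22.7%, against 27.7% of all genes. Motif counts were made at the reported setting only, and apart from EGR1 the calls were not followed through the alternatives. With no filter, 1 of all genes was lower and 3 higher, against 99 and 52 as reported. Lower beside EGR1 was the cytoplasmic actin gene ACTG1, with 437 and 401 FPKM in UM-164 libraries, against 696 and 747 FPKM in vehicle libraries (limma, adjusted p = 0.0359). Also lower were the filamin gene FLNA, the calponin gene CNN2 and the nuclear receptor gene NR2F1 (log2 fold changes -0.61, -0.77 and -0.997). Their adjusted p of 0.0451, 0.0472 and 0.0489 from limma lay close to the threshold. The 1 higher was CITED1, a transcriptional coactivator, with 3.91 and 4.33 FPKM in UM-164 libraries, against 1.43 and 1.56 FPKM in vehicle libraries (limma, adjusted p = 0.0356). These genes were named after their values were seen. Of 1708 tested genes with an EGR site in a promoter window, 21 (1.23%) were lower and 3 (0.176%) higher, against the same 0.86% and 0.452% of all genes, and the median log2 fold change was -0.03.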
